A study of Mus musculus with 2 samples.

Results

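The genes described here are 34 genes of DNA double-strand break repair, chosen by symbol from the 24091 genes of the deposited expression table, and every one of the 34 was found in it. They cover damage sensing and signalling, homologous recombination, and end joining. The expression values come from RNA sequencing of 2 libraries of cultured cells that the labels name primary adipocytes, from C57BL/6 mice. Levels of adipocyte and other cell type markers are given below. The sham library came from mice that were sham irradiated, and the irradiated library from mice that received pelvic radiation, given in the labels as 7.5 Gy and 5 days without saying whether the dose was daily or total. The titles of both libraries also name PBS, and the labels do not say what it was given with. Gonadal fat of both groups was taken 2 months after the treatment, broken up with collagenase, and spun, and the floating cells were kept in culture for 3 days. The sources used here do not give the number, age, or sex of these mice. Since each group had 1 library, no difference below has a replicate check, no test between the groups was possible, and no p-value is given.

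A double-strand break cuts both strands of the DNA helix and is among the most toxic lesions that ionizing radiation makes. Sensors bind the broken ends and switch on the kinases ATM and ATR, which mark the chromatin around the break by phosphorylating the histone H2AX into γ-H2AX. Cells then rejoin the ends directly by non-homologous end joining at any point of the cell cycle, or copy the sister chromatid by homologous recombination in S and G2 phase. Much of this response acts on proteins that are already present, so transcript levels measure neither the damage nor the amount of repair protein.

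Each gene is given as FPKM, which divides its fragments by its length in kilobases and by the library total in units of 1000000, so levels can be set side by side between genes. A difference is the deposited log2(FPKM + 0.1) of the irradiated library minus that of the sham library. The depth of the libraries was recovered as 30576000 fragments for the sham library and 34996000 for the irradiated one, which gave the fragments on each gene. The log2 ratio of those fragments per library total was given an exact 95% Clopper-Pearson interval, called the counting interval below. It covers counting error only and leaves out the variation between mice and between cultures.

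The repair genes were expressed at modest levels, with little difference between the libraries. The median FPKM of the 34 genes was 4.40 in the sham library and 4.03 in the irradiated library. An FPKM between 1 and 10 in both libraries was found for 27 of them, and the share of all genes in that range is not given here. H2afx stood far above the rest and made up 16.0% and 15.7% of their summed FPKM, which was 209 and 199.9. At the other end, Palb2 and Xrcc3 stayed below an FPKM of 1 in each library, and Dclre1c reached 1 in the irradiated library alone. The order of the genes by level hardly moved, since the rank of 33 of the 34 differed by at most 2 places. Across the 34 genes, which share both libraries, Spearman's rho between their levels was 0.99, given as a description.

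**Figure D1:**
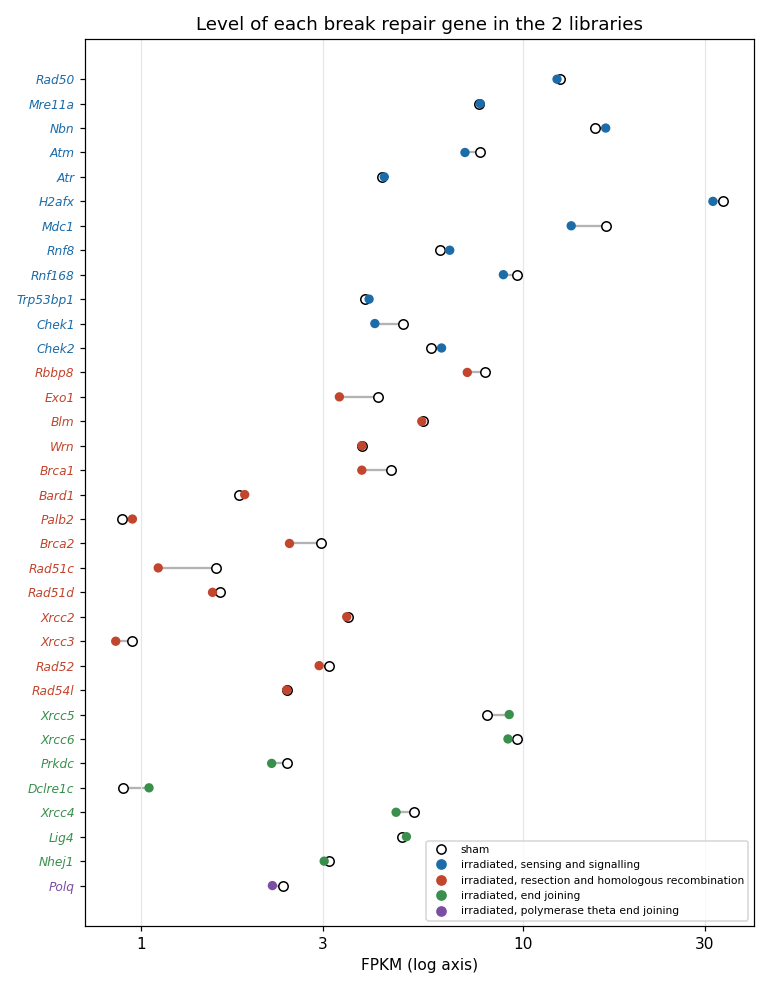
FPKM of each of the 34 genes (log axis) in the sham library (open points) and the irradiated library (filled points, coloured by branch of repair), with 1 library per group and no error bars. H2afx lies highest, at 33.5 and 31.5, and the longest line among the genes is that of Rad51c, from 1.57 down to 1.11.

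None of the 34 genes differed by 1 or more on the log2 scale, where 1.16% of the 11253 genes tested did. At that share a set of this size would often hold none, so the count does not set these genes apart. A gene was tested if either library reached an FPKM of 1, and 32 of the 34 repair genes passed this filter. Dclre1c passed it through the irradiated library alone. The differences ran from -0.47 for Rad51c to 0.20 for Dclre1c, and 28 of the 34 lay within 0.2 of 0. The share of all genes tested within 0.2 of 0 is not given here, so this count cannot be set against it. Over all 34 genes the median difference was -0.05, with 21 genes lower in the irradiated library, 11 higher, and 2 equal. Over the 32 that passed the filter, the median was also -0.05 and 62.5% were lower, beside a median of 0.02 and 44.0% over all genes tested. Higher values were found for 31.2% of the 32 and for 53.5% of all genes tested.

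Lower values outnumbered higher ones when counting error was taken into account. The counting interval lay below 0 for 10 of the 32 genes (31.2%, or 29.4% of the 34), namely Rad51c, Exo1, Mdc1, Brca2, Brca1, Chek1, Rbbp8, Atm, Prkdc, and Rnf168. Among all genes tested, 17.4% had an interval below 0. Xrcc5 alone (3.12%) had an interval above 0, compared with 23.8% of all genes tested. The repair genes had a median of 775.5 fragments in the sham library and all genes tested had 887. The upper bounds for Prkdc and Rnf168 were both -0.01, which is no larger than the rounding error of a difference.

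**Figure D2:**
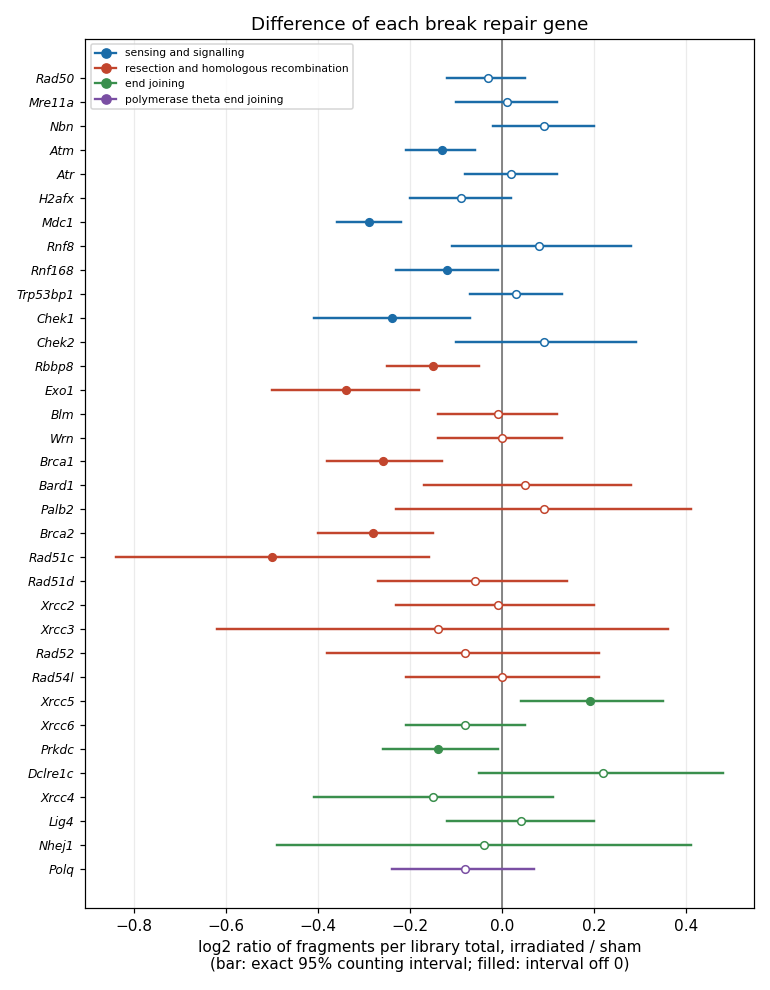
Log2 ratio of fragments per library total, irradiated over sham, for each of the 34 genes, with the exact 95% counting interval as a bar, colours for the branch of repair, and filled points where the interval lies off 0. Filled points on the left are spread over sensing and signalling (4 genes), resection and homologous recombination (5 genes), and end joining (1 gene). The single filled point on the right is Xrcc5. Over all genes tested, 17.4% of intervals lie below 0 and 23.8% above.

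The first proteins at a break are those of the MRN complex, in which RAD50 tethers the ends, MRE11 is the nuclease, and NBN recruits ATM. Rad50 had an FPKM of 12.5 in the sham library and 12.3 in the irradiated library, Mre11a had 7.68 and 7.74, and Nbn had 15.5 and 16.5. Their differences were -0.03, 0.01, and 0.09, and all 3 counting intervals included 0. The level of Nbn was 2.01 times that of Mre11a in the sham library and 2.13 times in the irradiated library.

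Of the apical kinases, Atm (chromosome 9 from 53437122 to 53536671), which answers to double-strand breaks, was expressed at an FPKM of 7.74 and 7.06. Its difference was -0.13, with a counting interval from -0.21 to -0.06 on 2862 and 2990 fragments. Atr, which answers to single-stranded DNA at resected ends and stalled forks, had 4.28 and 4.34, a difference of 0.02 with an interval from -0.08 to 0.12. For the kinases they activate, 1 of the 2 intervals lay below 0. Chek1, the effector kinase of ATR, had 4.86 and 4.10, a difference of -0.24 with an interval from -0.41 to -0.07. Chek2, the effector kinase of ATM, had 5.76 and 6.13, a difference of 0.09 with an interval from -0.10 to 0.29.

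The chromatin side of the response was led by H2afx (chromosome 9 from 44334715 to 44336073), the gene of the histone variant that becomes γ-H2AX. Its FPKM was 33.5 in the sham library and 31.5 in the irradiated library, on 1391 and 1495 fragments. The difference of -0.09 had a counting interval from -0.20 to 0.02, so no difference was detectable at this depth. Mdc1 (chromosome 17 from 35841498 to 35859670), the adaptor that binds γ-H2AX and spreads the signal, had 16.5 and 13.4. Its difference of -0.29 had an interval from -0.36 to -0.22, on 3693 and 3452 fragments, the most of the 34 genes. The Mdc1 interval overlapped neither that of Atm nor that of Nbn, whose product binds MDC1. Its upper bound of -0.22 and the lower bound of -0.21 for Atm differ by no more than the rounding error of a difference. In the sham library Mdc1 stood above Nbn, by 1.06 times, and in the irradiated library below it, at 0.817 times.

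Downstream of MDC1, the ubiquitin ligases RNF8 and RNF168 modify the chromatin so that 53BP1, the product of Trp53bp1, can bind and shield the ends from resection. Rnf8 had an FPKM of 6.09 and 6.44, a difference of 0.08 with an interval that included 0. Rnf168 had 9.68 and 8.90, a difference of -0.12 with an interval from -0.23 to -0.01. Trp53bp1 had 3.87 and 3.96, a difference of 0.03 with an interval from -0.07 to 0.13. Over the 12 sensing and signalling genes, 6 were lower and 6 higher, and the median difference was -0.01. Of their intervals, 4 lay below 0 (33.3%, against 17.4% of all genes tested) and 0 above (against 23.8%).

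Homologous recombination begins with resection of the ends. Rbbp8, which encodes the resection starter CtIP, had an FPKM of 7.96 in the sham library and 7.16 in the irradiated library, a difference of -0.15 with an interval from -0.25 to -0.05. Exo1 (chromosome 1 from 175880778 to 175911396), the exonuclease that extends resection, had 4.19 and 3.31 on 703 and 636 fragments. Its difference of -0.33 had an interval from -0.50 to -0.18 and was the lowest after that of Rad51c. The RecQ helicases showed no such difference. Blm had 5.48 and 5.44, and Wrn had 3.79 in both libraries.

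In homologous recombination BRCA1 acts with its partner BARD1 and BRCA2 with its partner PALB2, which links the 2 pairs. Brca1 (chromosome 11 from 101488764 to 101551955) was at an FPKM of 4.53 in the sham library and 3.79 in the irradiated library. Its difference was -0.25, with an interval from -0.38 to -0.13. Brca2 (chromosome 5 from 150522621 to 150570146) had 2.97 and 2.45, a difference of -0.27 with an interval from -0.40 to -0.15. Their partners Bard1 and Palb2 had intervals that included 0. Bard1 had 1.81 and 1.87, and Palb2 had 0.893 and 0.95, with differences of 0.05 and 0.08. The level of Brca1 relative to Bard1 was 2.51 in the sham library and 2.02 in the irradiated library, and that of Brca2 relative to Palb2 was 3.33 and 2.58. The intervals within both pairs overlapped. Bard1 and Palb2 rest on 300 and 148 fragments in the sham library.

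A family of related proteins, encoded by Rad51c, Rad51d, Xrcc2, and Xrcc3, helps homologous recombination proceed, and it included the gene with the largest difference of the 34. Rad51c (chromosome 11 from 87377607 to 87404954) was at an FPKM of 1.57 in the sham library and 1.11 in the irradiated library, on 162 and 131 fragments. The level was 29.6% lower, a difference of -0.47, and its interval ran from -0.84 to -0.16. The other members of the family were closer to equal. Rad51d had 1.61 and 1.54, Xrcc2 had 3.48 and 3.46, and Xrcc3 had 0.95 and 0.859 on 71 and 74 fragments. All 3 had intervals that included 0, and that of Rad51c overlapped each of them.

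Rad52, an annealing protein, had 3.10 and 2.93, a difference of -0.08. Rad54l, a motor protein of strand exchange, had 2.41 in both libraries. Over the 14 genes of resection and homologous recombination, 10 were lower, 2 higher, and 2 equal, and the median difference was -0.07. Of their intervals, 5 lay below 0 (35.7%, against 17.4% of all genes tested) and 0 above (against 23.8%). Among the branches of more than 1 gene this branch had the largest share of lower genes, 71.4%, beside 44.0% of all genes tested. Whether it differs from the others could not be tested.

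End joining starts with the Ku ring, made of KU80 (Xrcc5) and KU70 (Xrcc6) in equal parts. Xrcc5 (chromosome 1 from 72307421 to 72394953) was at an FPKM of 8.07 in the sham library and 9.22 in the irradiated library, on 625 and 818 fragments. Its difference of 0.19 had an interval from 0.04 to 0.35. Xrcc6 had 9.68 and 9.15, a difference of -0.08 with an interval from -0.21 to 0.05, which overlapped that of Xrcc5 only at its end. The level of Xrcc5 relative to Xrcc6 was 0.833 in the sham library and 1.01 in the irradiated library.

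Prkdc, the catalytic subunit of the DNA-dependent protein kinase that Ku recruits, had 2.41 and 2.20, a difference of -0.13 with an interval from -0.26 to -0.01. The intervals of Xrcc5 and Prkdc did not overlap. Dclre1c, the nuclease Artemis that opens and trims ends, had 0.9 and 1.05, a difference of 0.20 with an interval from -0.05 to 0.48. The ligation genes Xrcc4, Lig4, and Nhej1 had an FPKM of 5.18 and 4.66, 4.82 and 4.96, and 3.10 and 3.02, respectively. Their differences of -0.15, 0.04, and -0.04 all had intervals that included 0, and Nhej1, a short gene model, rested on only 80 and 89 fragments. Over the 7 end joining genes, 4 were lower and 3 higher, and the median difference was -0.04. Of their intervals, 1 lay below 0 and 1 above (14.3% each, against 17.4% and 23.8% of all genes tested). Polq, the polymerase of the backup pathway that joins ends at short matches, had 2.35 and 2.21, a difference of -0.08 with an interval from -0.24 to 0.07.

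**Figure D3:**
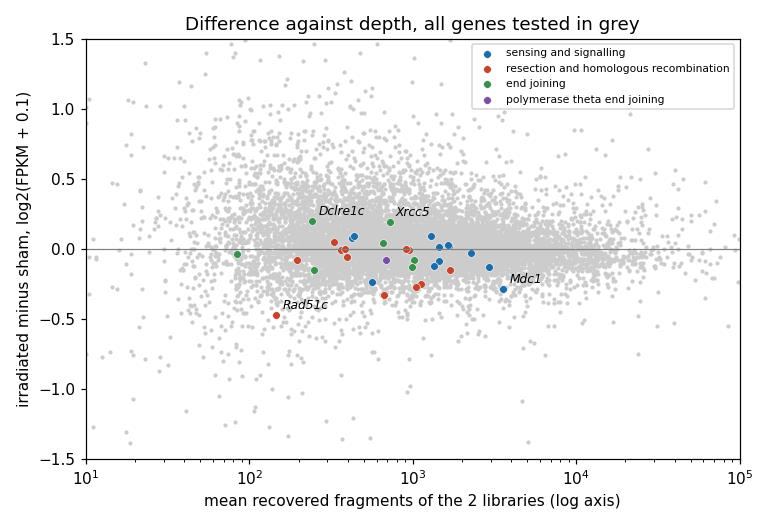
Difference in log2(FPKM + 0.1) against the mean recovered fragments of the 2 libraries (log axis), with all genes tested in grey and the 32 repair genes that passed the filter in colour by branch. The vertical axis is limited to 1.5 in either direction and the horizontal axis to 10 to 100000 fragments, and the repair genes lie within the grey cloud, Rad51c lowest at -0.47 and Mdc1 far to the right at -0.29.

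Transcripts of 9 of the 34 genes are known to rise in S and G2 phase, namely H2afx, Chek1, Exo1, Blm, Brca1, Bard1, Brca2, Rad54l, and Polq. Of these, 7 were lower in the irradiated library, 1 higher, and 1 equal, with a median difference of -0.09 and 4 intervals below 0 (44.4%). Of the other 25 genes, 14 were lower, 10 higher, and 1 equal, with a median of -0.03, and 6 intervals lay below 0 (24%) and 1 above, beside 17.4% below 0 among all genes tested. Mki67, the marker of cycling cells, had an FPKM of 42.1 in the sham library and 37.2 in the irradiated library, and Pcna, the sliding clamp of DNA replication, had 107 and 101. In a list of 24 proliferation genes, 19 were lower and 5 higher, 14 intervals lay below 0 (58.3%, against 17.4% of all genes tested) and 1 above, the median difference was -0.10, and the summed FPKM was 945 and 902. The part of cell division in the repair gene differences was not tested. Polyadenylated RNA was sequenced, so any H2afx transcript without a poly(A) tail would not be counted. In bulk RNA, fewer cells of a type and less RNA per cell cannot be told apart.

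A wider list of break repair genes was examined in the same way, and 77 of its 81 genes in the table passed the filter. Among the 77, 52 were lower and 23 higher, the median difference was -0.05, and 18 intervals lay below 0 (23.4%, against 17.4% of all genes tested) and 3 above (3.90%, against 23.8%). Recql4, a further RecQ helicase, was the lowest, with an FPKM of 2.21 in the sham library and 1.61 in the irradiated library and a difference of -0.44. Uhrf1, a reader of newly replicated DNA, had 25.7 and 21.3, a difference of -0.27. Brip1, the helicase partner of BRCA1, had 3.68 and 3.10, a difference of -0.24 with an interval from -0.39 to -0.10, close to that of Brca1 itself.

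In the other direction, Rnf169 had an FPKM of 3.96 in the sham library and 5.25 in the irradiated library. Its difference of 0.40 had an interval from 0.28 to 0.53, which overlapped neither that of Rnf168 nor that of Mdc1. RNF169 is known to bind the same ubiquitin mark as 53BP1 and to compete with it. Fancg, of the Fanconi anemia core complex, had 1.55 and 1.94, a difference of 0.31, and Polm, a gap-filling polymerase of end joining, had 3.98 and 4.69, a difference of 0.23.

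**Figure D4:**
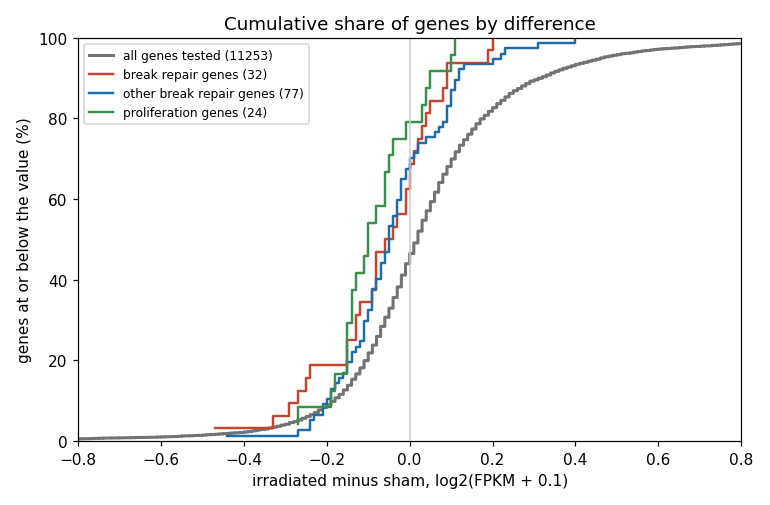
Cumulative share of genes (%) at or below each difference in log2(FPKM + 0.1), for all 11253 genes tested, the 32 repair genes, the 77 wider break repair genes, and the 24 proliferation genes, with the axis limited to 0.8 in either direction. The 3 coloured lines lie to the left of the grey line around 0, with medians of -0.05, -0.05, and -0.10 against 0.02.

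Because several repair genes are known targets of E2F, the transcription factor family that switches on S phase genes, the RefSeq promoters (GRCm38.p6, 250 bases before to 50 after the gene start) were searched for the E2F words TTTCCCGC, TTTCGCGC, TTTGCCGC, and TTTGGCGC on both strands. A promoter was given for 25 of the 34 genes, and 6 of the 25 (24%) held a word, compared with 2.60% of the 27025 genes in the table and 2.26% of its 32851 promoters. Those shares were taken without regard to expression, and the share over the genes tested is not given here. No matches overlapped. The stretches around the words are shown because they set genes with a counting interval below 0 beside genes whose interval included 0. They are written 5′ to 3′ along the gene's strand with the E2F word in capitals.
Mdc1 (chr17:35841438-35841497, plus strand): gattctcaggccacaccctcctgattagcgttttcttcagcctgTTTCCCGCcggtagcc
Rad51c (chr11:87404952-87405011, minus strand): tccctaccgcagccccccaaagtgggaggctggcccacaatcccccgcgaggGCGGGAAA
Brca2 (chr5:150522427-150522486, plus strand): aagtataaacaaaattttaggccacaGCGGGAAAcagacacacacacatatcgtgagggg
Xrcc6 (chr15:82016297-82016356, plus strand): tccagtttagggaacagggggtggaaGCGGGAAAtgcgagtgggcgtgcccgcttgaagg
Bard1 (chr1:71103148-71103207, minus strand): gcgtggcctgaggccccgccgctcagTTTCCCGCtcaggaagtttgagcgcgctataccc
Chek2 (chr5:110839805-110839864, plus strand): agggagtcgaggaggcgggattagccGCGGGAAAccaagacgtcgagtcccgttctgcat

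The word begins 16 bases before the RefSeq gene start in Mdc1, 5 in Rad51c, 46 in Xrcc6, 152 in Chek2, 168 in Brca2, and 209 in Bard1. For Xrcc6 this start, and the word with it, lies inside the gene as the expression table gives it, and for Chek2 it lies slightly before the table's start. Rad51c has a second promoter in the table with a further word 12 bases into the transcript. The differences of Mdc1, Rad51c, and Brca2 were -0.29, -0.47, and -0.27, each with an interval below 0. Those of Xrcc6, Bard1, and Chek2 were -0.08, 0.05, and 0.09, with intervals that included 0. The promoters of Brca1, Chek1, Atm, and Rnf168, which also had intervals below 0, held none of these words. A word in a promoter describes its letters and does not show that a factor binds there.

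Adipocyte genes were in part near the detection floor. Of 20 adipocyte genes, 9 passed the filter, and the defining genes Adipoq and Plin1 had an FPKM of 0.133 and 0.254 in the sham library and 0.232 and 0.478 in the irradiated library. The 9 that passed had a median FPKM of 38 and 32.1 and a summed FPKM of 410.4 and 443, with 1 interval above 0 and 3 below. Col1a1, a fibroblast collagen, had 1937 and 1428. Among 12 fibroblast and progenitor genes, 6 intervals lay below 0 and 3 above, and the summed FPKM was 4486 and 3591. Of 9 mesothelial genes, 8 intervals lay above 0 and 1 below, with a summed FPKM of 35.4 and 51.1. Their median difference was 1.16, their median FPKM was 0.893 and 2.71, and 5 differed by at least 1 (1.16% of all genes tested did). Of 12 macrophage genes that passed the filter, 8 intervals lay above 0 and 1 below, and the whole list summed to 618 and 659. The 12 genes had a median difference of 0.41 and a median FPKM of 12.4 in the sham library and 18.7 in the irradiated library. Of 10 endothelial genes, 4 intervals lay above 0 and 6 included it, with sums of 53.4 and 58.4. Among all genes tested, 23.8% had an interval above 0 and 17.4% below. No lymphocyte gene passed the filter. No marker of these lists was at 0 fragments in both libraries, and their part in the repair gene differences was not tested. Cdkn1a and Mdm2, targets of p53, had 51.2 and 124, and 34.7 and 61.3. In a list of p53 targets, 25 genes passed the filter, with a median difference of 0.47. Of their intervals, 18 lay above 0, 2 lay below, and 5 included 0.

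Of the 34 genes, 5 overlap a gene on the other strand that passed the filter. Trp53bp1 overlaps Tubgcp4, Xrcc3 overlaps Klc1, Rad54l overlaps Lrrc41, Xrcc6 overlaps Desi1, and Dclre1c overlaps Suv39h2. The library preparation was stranded, but the sources used here do not say whether the counting used strand. In each of the 5 pairs the partner had the higher FPKM. Klc1 had an FPKM of 25.2 and 27.4 beside the 0.95 and 0.859 of Xrcc3, and Suv39h2 had 2.36 and 1.78 beside the 0.9 and 1.05 of Dclre1c. None of the 11 genes with an interval off 0 was among these 5.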

How the data were processed

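Per the labels, polyadenylated RNA was sequenced from 1 library per group with a stranded preparation, and mm10 is named as the genome build. The values deposited by the authors are the log2 of FPKM after 0.1 was added, with 2 decimals, beside each gene's length. The sources used here do not give the aligner, the counting tool, or any filter. FPKM was recovered by removing the 0.1. Library totals of 30576000 and 34996000 fragments were found as those that made the low values whole fragments. All 1819 and 1952 low genes lay within 0.12 of a whole fragment. For genes with many fragments the recovered number is approximate because of the rounding. The recovery and the intervals were tested on simulated data of the 24091 genes. On a gene of 1 kb, 3 fragments are an FPKM of 0.0981 in the sham library and 0.0857 in the irradiated library. PCR copies are not independent molecules, so intervals cover counting error only. Coordinates are those of the table. Of its 23349 symbols found in RefSeq for GRCm38.p6, 17741 had the same start or end.

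Samples were grouped by the treatment label. With 1 library per group, no count model or test was run. The genes, branches, and lists were chosen from general knowledge with earlier results of these data known. The text names all 34 genes and, of the wider repair list, the 3 highest and 3 lowest differences among genes that passed the filter with an interval off 0, with Cdkn1a, Mdm2, Mki67, Pcna, Adipoq, Plin1, and Col1a1 as checks. Overlapping genes were named from their coordinates. List symbols were matched to older symbols in RefSeq. Alternatives covered the pseudocount, the filter, the scaling, the gene length trend, the summary, the branches, and the threshold. Computations ran in Python 3.11.15 with SciPy 1.17.1 and pandas 2.3.3, and plots were drawn with matplotlib 3.10.9.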

Additional observations from a re-analysis of the deposited data

How the results depend on the processing

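No paired analysis was possible because each group had 1 library, and for the same reason no library could be left out. The number of all genes past the threshold depended on the settings, 89 higher and 42 lower as reported. It was 29 and 17 with log2(FPKM + 1), 267 and 148 without a filter, 23 and 10 with an FPKM of at least 5, 11 and 8 with a threshold of 2, and 485 and 162 with a threshold of 0.5. None of the repair genes passed the threshold under any of these settings. At a threshold of 1 or 2, so few of all genes passed that a set of this size would often hold none. With an FPKM of at least 5, 14 repair genes remained and 4 had an interval below 0, because fewer genes were tested. The share below 0 over the 7538 genes tested at that filter is not given here, so this count cannot be set against it. Over the other alternatives that could change it, the number of repair genes with an interval below 0 lay between 9 and 11. It was 9 when intervals were widened by 0.01 for rounding, an alternative chosen after seeing the data. The median difference of the repair genes, or their mean where that replaced it, lay between -0.07 and -0.0351 under every alternative. These include one chosen after seeing the data that left out the overlapping genes, with 28 repair genes remaining. Counting the MRN complex with homologous recombination gave medians of -0.09 for sensing and signalling and -0.03 for homologous recombination, so the order of these branches depends on that choice. The mean of the end joining genes was 0.0043, where their median was -0.04. Centring on the median of all genes lowered every difference by 0.02, and leaving the 100 most abundant genes out of the library totals gave a shift of -0.0165. No difference of a single repair gene moved outside its counting interval in any of 208 comparisons. This is no check of the values, because filter alternatives leave a difference unchanged and the other shifts were smaller than the interval widths. Depth limits Nhej1 and Xrcc3 most, each under 100 fragments per library.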
